A study of Mus musculus with 8 samples.

Results

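The interleukin-1 (IL-1) system was followed here at the RNA level in mouse bone marrow-derived macrophages (BMDMs) that had or lacked the coactivator Ncoa6. The group of genes was fixed by name: the agonists Il1a and Il1b, the receptor antagonist Il1rn, the decoy receptor Il1r2, the co-receptor Il1rap, the cytokine Il18 and its soluble inhibitor Il18bp. All 7 genes were found in the table of 50615 genes, and all 7 were among the 17625 genes that passed the filter on low counts and were tested. Il1r2 passed that filter with only 19 reads over 8 libraries.

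BMDMs were grown from the bone marrow of C57BL/6 mice for 6 days with M-CSF at 20 ng/ml. Ncoa6-KO BMDMs came from Ncoa6fl/flLysMCRE mice, in which Cre recombinase, driven by the myeloid lysozyme locus, removes floxed Ncoa6 sequence in myeloid cells. Ncoa6-sufficient BMDMs came from Ncoa6fl/fl mice without Cre, so both genotypes carried the floxed allele and the controls did not carry Cre. Cells of each genotype received medium alone, or LPS (100 ng/ml, 4 h) and then monosodium urate (MSU) crystals (200 µg/ml, 2 h). Every group, 4 in all, held 2 libraries, made from different mice, and the age and sex of the mice were not given in the sources used here. LPS and MSU were always given together, so the effect of each alone cannot be told apart. The values are numbers of RNA-seq reads assigned to each gene. They are given below as normalized counts, scaled to a library of 29332189 reads, and they measure RNA and not the mature, secreted cytokine.

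IL-1α and IL-1β bind the same receptor, IL1R1, which signals once the co-receptor IL1RAP joins it. IL1RN occupies that receptor without signalling, and IL1R2 binds IL-1 but has no signalling tail. IL-18 acts through a related receptor pair, IL18R1 and IL18RAP, and IL18BP captures it in solution. In macrophages LPS signalling raises transcription of IL-1 family genes, and crystals such as MSU activate the NLRP3 inflammasome, whose caspase-1 cuts the precursors of IL-1β and IL-18.

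Il1a (ENSMUSG00000027399) and Il1b (ENSMUSG00000027398) are neighbours on the minus strand of chromosome 2 (GRCm38), at chr2:129299610-129309972 and chr2:129364570-129371139, 54.6 kb apart. Il1rn (ENSMUSG00000026981) lies on the plus strand of the same chromosome at chr2:24336853-24351494. Il1r2 (ENSMUSG00000026073, chr1:40074079-40125231), Il1rap (ENSMUSG00000022514, chr16:26581704-26730117) and Il18 (ENSMUSG00000039217, chr9:50554827-50581840) are on plus strands, and Il18bp (ENSMUSG00000070427, chr7:102014885-102018690) is on a minus strand. Ncoa6 also lies on chromosome 2, 26.1 Mb from Il1a, 26.0 Mb from Il1b and 131 Mb from Il1rn. Of these genes 6 overlap an annotated gene on the other strand, among them Gm14023 over Il1a, Il1bos over Il1b and the abundant Numa1 over Il18bp, and although the library kit keeps strand, the strand setting of the read counting is not given in the sources used here, so whether reads of such pairs were separated is not known.

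The sequences before the start sites of Il1a, Il1b and Il1rap are shown because, of the 6 members with enough reads for a fold change, the first pair responded most to LPS + MSU and Il1rap least. They are the 250 bases upstream of the annotated start in RefSeq (GRCm38.p6), read 5′ to 3′ on the gene's own strand, at chr2:129309973-129310222 (minus strand) for Il1a, chr2:129371140-129371389 (minus strand) for Il1b and chr16:26581455-26581704 (plus strand) for Il1rap. Capitals mark matches to the motifs searched.
Il1a: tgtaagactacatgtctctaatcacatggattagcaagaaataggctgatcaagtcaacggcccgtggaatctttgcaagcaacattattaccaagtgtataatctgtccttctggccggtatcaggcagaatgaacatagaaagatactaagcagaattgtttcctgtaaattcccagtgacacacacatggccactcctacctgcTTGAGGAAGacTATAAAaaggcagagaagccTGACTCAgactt
Il1b: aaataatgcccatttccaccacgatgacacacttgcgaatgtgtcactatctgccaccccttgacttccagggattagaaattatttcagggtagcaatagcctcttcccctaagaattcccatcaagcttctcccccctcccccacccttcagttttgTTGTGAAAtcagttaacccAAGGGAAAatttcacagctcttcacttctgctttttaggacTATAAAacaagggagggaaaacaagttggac
Il1rap: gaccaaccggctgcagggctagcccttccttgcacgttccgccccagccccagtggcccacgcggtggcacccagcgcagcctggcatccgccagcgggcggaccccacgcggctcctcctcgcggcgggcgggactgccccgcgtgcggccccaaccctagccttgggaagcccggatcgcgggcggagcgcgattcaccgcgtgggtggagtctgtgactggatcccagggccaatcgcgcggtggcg

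All 7 members had a promoter entry, 9 windows in all because Il1rn had 3 starts. Motifs were searched on both strands from 250 bases before to 50 bases after each start: TATAAA, an NF-κB-like GGGNNTTNC, an AP-1-like TGANTCA, a C/EBP-like TTNNGNAA, an IRF-like AANNGAAA and a PU.1-like GAGGAAG. A match is a match of letters and was not tested as a binding site. Il1a and Il1b each held TATAAA on the gene's strand just before the start, at -32 to -27 and -31 to -26, a motif found in 13.6% of the 32851 mouse promoter windows. Il1a also held the AP-1-like TGACTCA at -12 to -6, in a motif class present in 7.81% of windows, and a C/EBP-like TTGAGGAA at -43 to -36 that overlaps the PU.1-like GAGGAAG at -41 to -35. Il1b held the C/EBP-like TTGTGAAA at -91 to -84 and the IRF-like AAGGGAAA at -72 to -65, motif classes found in 40.7% and 23.9% of windows. The Il1rap window was 72.0% G and C against 44.7% for Il1a and 45.7% for Il1b, had no match upstream of its start and held 1 IRF-like match after it, at 23 to 30. The NF-κB-like letters, present in 15.2% of windows, were found for Il1rn and Il18 and in neither the Il1a nor the Il1b window.

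The libraries held 25281955 to 33673552 reads. Ncoa6 itself, counted over the whole gene and therefore blind to which exons were lost, had 1514.6 and 1404.7 normalized counts in Ncoa6-sufficient and 784.2 and 621.7 in Ncoa6-KO BMDMs with medium, and 1296.7 and 1173.3 against 563.3 and 526.1 with LPS + MSU. It was lower in Ncoa6-KO BMDMs by -1.05 on the log2 scale with medium (SE 0.117, adjusted p = 0.00236) and by -1.18 with LPS + MSU (SE 0.124, adjusted p = 0.00189). All adjusted p-values are from edgeR's quasi-likelihood test over 17625 genes with Benjamini-Hochberg adjustment, and a gene is called when its adjusted p is under 0.05. The macrophage markers were abundant in every library, and the markers of T and NK cells reached at most 2.77 normalized counts in sum. Neutrophil markers, from cells that can also make IL-1, summed to 445 to 513 normalized counts with medium and 755 to 992 with LPS + MSU. Of the 9 tested, 4 were called higher with LPS + MSU in each genotype, where 24.7% and 25.2% of all tested genes were. None was called between genotypes, and Ly6g had 1 read in all libraries together. The sum of 8 macrophage markers was lower in Ncoa6-KO BMDMs, at 257868 to 298530 against 394633 to 461439 with medium and 367407 to 391122 against 494111 to 557641 with LPS + MSU. Lyz2, the gene of the locus that carries Cre, contributed much of that: without it the sums were 145875 to 170975 against 184740 to 189341, and 244142 to 261737 against 276776 to 287311. Of the 8 markers, Lyz2 and Cd14 were called lower with medium, and Lyz2 and Itgam with LPS + MSU, where 1.3% and 1.63% of all tested genes were. Endothelial markers summed to 365 to 379 against 533 to 712 with medium and 3063 to 5465 against 6534 to 6926 with LPS + MSU, and none of the 4 was called between genotypes. Most of each sum was Kdr, with means of 355 against 586 with medium and 4123 against 6446 with LPS + MSU. Dendritic cell markers summed to 167 to 194 in Ncoa6-KO against 219 to 278 in Ncoa6-sufficient BMDMs with LPS + MSU, again with none called. B cell markers summed to 4.20 to 10.5 in Ncoa6-KO against 24.8 to 24.9 in Ncoa6-sufficient BMDMs under the same condition, and stromal markers to 196 to 691 against 762 to 820, with none called. With so small a share of all tested genes called between genotypes, the absence of calls in the other short marker lists says little. What part these shifts in marker sums had in the results below was not tested. In bulk RNA fewer cells that express a gene cannot be told from less RNA per cell.

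With medium alone the antagonist outweighed the agonists. Levels of different genes are compared per kb of exon, which understates genes with long alternative ends such as Il1rn and Il1rap. In Ncoa6-sufficient BMDMs the order was Il1rn at 287 ± 82.0 normalized counts per kb (SD, n = 2), Il18 at 164 ± 25.4, Il18bp at 82.4 ± 10.8, Il1rap at 31.1 ± 0.0972, Il1a at 11.3 ± 1.21, Il1b at 8.98 ± 1.22 and Il1r2 at 1.10 ± 0.997. The 2 libraries of each gene did not overlap those of the next gene in that order. Part of the order depends on the division by exon length. Without it the mean was 353 normalized counts for Il1rap, above Il18bp at 249 and Il18 at 169. Ncoa6-KO BMDMs with medium had the same order per kb, from Il1rn at 197 ± 2.57 to Il1a at 4.11 ± 0.157, Il1b at 2.74 ± 1.28 and Il1r2 at 1.01 ± 0.122, again with no overlap between neighbours in the order.

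After LPS + MSU Il1b moved from place 6 to the top of the order per kb. This lead depends on the division by exon length. Without it the mean was higher for Il1rn than for Il1b, at 50548 against 30851 normalized counts in Ncoa6-sufficient BMDMs. In Ncoa6-KO BMDMs the means were 19964 and 18502, with overlapping libraries. The values that follow are per kb. In Ncoa6-sufficient BMDMs Il1b led with 16178 ± 848 normalized counts per kb (SD, n = 2), followed by Il1rn at 9132 ± 3212, Il1a at 6936 ± 23.4, Il18 at 2819 ± 68.6, Il18bp at 1111 ± 280, Il1rap at 81.4 ± 15.6 and Il1r2 at 2.53 ± 1.53. Il1rn and Il1a overlapped between libraries, and the other neighbours did not. In Ncoa6-KO BMDMs Il1b led with 9702 ± 100 per kb, then Il1a at 3671 ± 516 and Il1rn at 3607 ± 706, which overlapped each other, then Il18 at 2268 ± 73.3, Il18bp at 814 ± 185, Il1rap at 66.1 ± 10.9 and Il1r2 at 0.709 ± 0.0342.

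**Figure D1:**
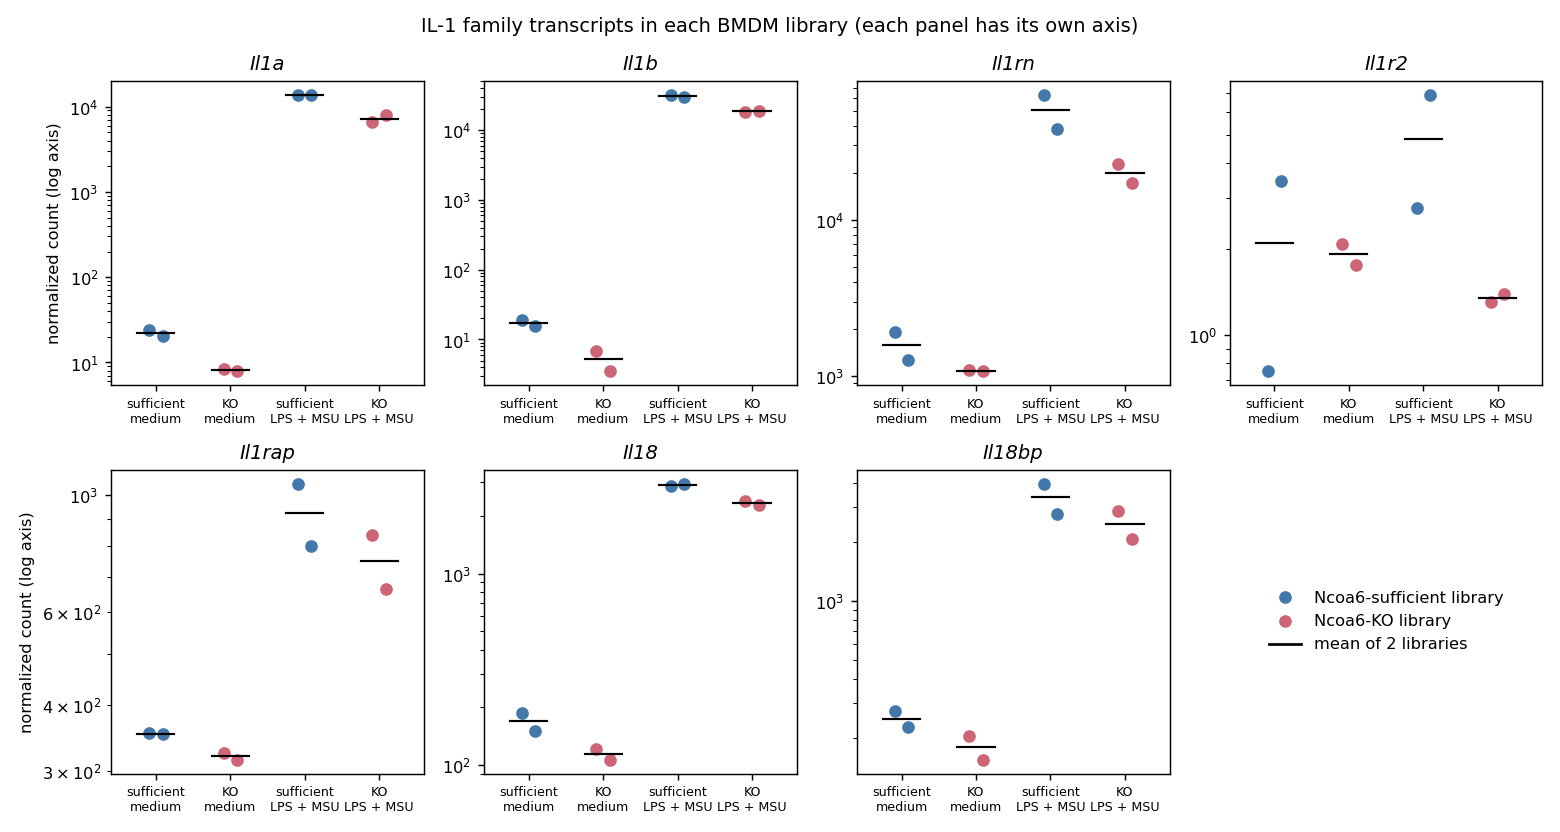
Normalized counts (log axis, a separate range in each panel) of the 7 members in each library. Points are libraries, blue for Ncoa6-sufficient and red for Ncoa6-KO BMDMs, and black lines are means of 2 libraries. Il1a, Il1b, Il1rn and Il18 Ncoa6-KO libraries lie below both Ncoa6-sufficient libraries under each condition, while Il1rap and Il18bp overlap with LPS + MSU.

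The first comparison asked how far each gene responded to LPS + MSU in each genotype. In Ncoa6-sufficient BMDMs 6 of the 7 members were called higher, where 24.7% of all tested genes were called higher and 30.5% lower. The same 6 members were called higher in Ncoa6-KO BMDMs, where 25.2% of tested genes were called higher and 27.9% lower. The median log2 fold change of these 6 members was 4.55 for Ncoa6-sufficient cells and 4.27 for Ncoa6-KO cells, beside -0.12 and -0.07 over all tested genes. Scaling by library totals alone shifted the median of all genes to -0.78 and -0.71, and the 6 members stayed called under it.

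Il1b, the precursor of the main secreted inflammasome cytokine, was nearly silent in medium. In Ncoa6-sufficient BMDMs it had 18.8 and 15.5 normalized counts with medium and 31994.6 and 29706.7 with LPS + MSU. In Ncoa6-KO BMDMs the values were 7.0 and 3.5 with medium and 18366.8 and 18637.4 with LPS + MSU. The stimulated libraries of either genotype thus lay far above all medium libraries. The log2 fold change was 10.80 (SE 0.185, adjusted p = 1.39e-10) in Ncoa6-sufficient and 11.70 (SE 0.204, adjusted p = 1.71e-10) in Ncoa6-KO BMDMs, which ranked 9th and 7th by fold change once genes averaging under 50 normalized counts were set aside. The low medium level limits both folds, since it rested on 10 and 4 reads in the Ncoa6-KO libraries.

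Il1a encodes IL-1α, which is active as the full-length protein and is also found in the nucleus and at the cell surface. Its normalized counts were 24.0 and 20.6 with medium and 13725.2 and 13660.1 with LPS + MSU in Ncoa6-sufficient BMDMs. The Ncoa6-KO libraries held 8.3 and 7.9 with medium and 6526.5 and 7966.5 with LPS + MSU. Again no stimulated library came near the medium libraries. The log2 fold change was 9.25 (SE 0.171, adjusted p = 1.59e-10) and 9.77 (SE 0.188, adjusted p = 1.73e-10), and Il1a ranked 27th and 21st. Reads assigned to Il1a were fractional in 6 libraries, so part of them was shared with another annotated gene.

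Il1rn, which encodes the receptor antagonist, had the highest level of the members in medium and rose from there. Ncoa6-sufficient BMDMs held 1907.9 and 1266.2 normalized counts with medium and 63117.8 and 37978.0 with LPS + MSU. Ncoa6-KO BMDMs held 1098.4 and 1078.3 with medium and 22726.6 and 17200.5 with LPS + MSU. The 2 stimulated Ncoa6-sufficient libraries differed from each other more than those of any agonist. The log2 fold change was 4.99 (SE 0.283, adjusted p = 5.97e-08) and 4.20 (SE 0.274, adjusted p = 1.95e-07).

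Il18 was already present in medium, with 187.6 and 150.5 normalized counts in Ncoa6-sufficient and 121.7 and 106.3 in Ncoa6-KO BMDMs. After stimulation the values were 2856.7 and 2956.8, and 2391.6 and 2284.7. Its log2 fold change was 4.10 (SE 0.122, adjusted p = 8.96e-10) and 4.35 (SE 0.126, adjusted p = 6.36e-10). Il18bp, whose product neutralizes IL-18, had 272.4 and 226.2 normalized counts with medium and 3962.3 and 2764.0 with LPS + MSU in Ncoa6-sufficient BMDMs. In Ncoa6-KO BMDMs it had 203.0 and 153.7, then 2858.1 and 2066.5. Il18bp rose by 3.75 (SE 0.219, adjusted p = 7.43e-08) and 3.78 (SE 0.223, adjusted p = 8.70e-08) on the log2 scale.

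Il1rap, the shared co-receptor of the IL-1, IL-33 and IL-36 receptors, rose least among the 6. It had 354.3 and 352.7 normalized counts with medium and 1050.1 and 800.1 with LPS + MSU in Ncoa6-sufficient BMDMs, and 325.4 and 315.2, then 837.7 and 663.2, in Ncoa6-KO BMDMs. The log2 fold change was 1.39 (SE 0.148, adjusted p = 1.00e-05) and 1.23 (SE 0.149, adjusted p = 3.13e-05). Scaling by library totals gave 0.71 and 0.59, still called. Il1r2, the decoy receptor, was at the limit of detection: its libraries held 1 and 4 reads (Ncoa6-sufficient, medium), 3 and 2 (Ncoa6-KO, medium), 2 and 5 (Ncoa6-sufficient, LPS + MSU) and 1 and 1 (Ncoa6-KO, LPS + MSU). At this depth no change of Il1r2 was detectable in any comparison, and no fold is given.

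**Figure D2:**
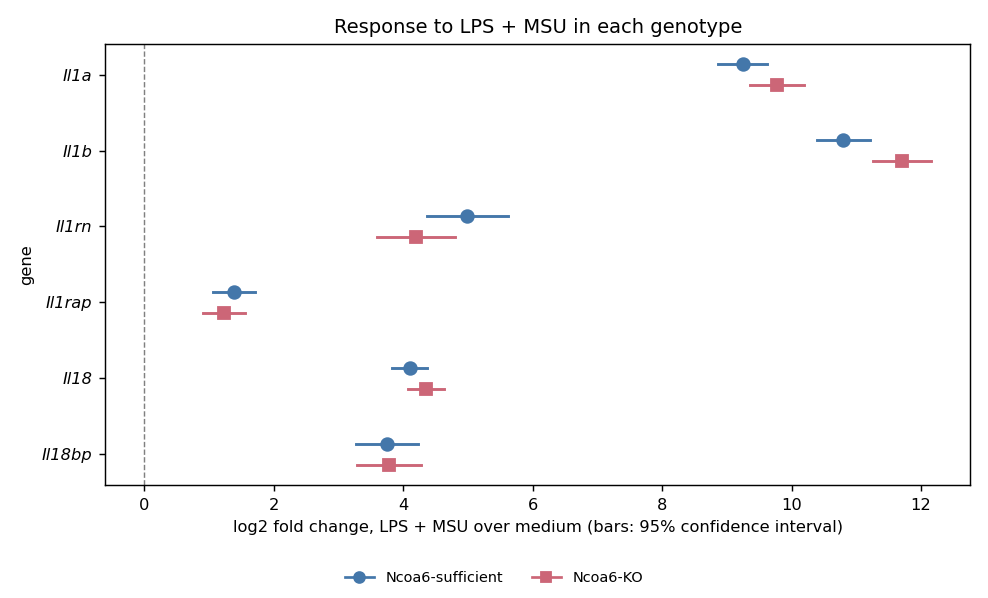
Log2 fold changes of LPS + MSU over medium for 6 members in Ncoa6-sufficient (blue circles) and Ncoa6-KO (red squares) BMDMs, with 95% confidence intervals as bars. Il1b is highest at 10.80 and 11.70, Il1rap lowest at 1.39 and 1.23, and every interval lies above 0.

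The second comparison asked whether loss of Ncoa6 changed these genes in unstimulated cells. With medium alone 2 of the 7 members, the agonists Il1a and Il1b, were called lower and none higher, where 1.3% of all tested genes were called lower and 0.573% higher. Leaving out Il1r2, which had too few reads, the 6 log2 fold changes were below 0, with a median of -0.56 beside -0.03 over all tested genes. Il1a was at 36.7% of the Ncoa6-sufficient level, a log2 fold change of -1.45 (SE 0.299, 95% confidence interval -2.11 to -0.79, adjusted p = 0.0388). Il1b was at 32.0%, a log2 fold change of -1.65 (SE 0.341, interval -2.40 to -0.89, adjusted p = 0.0398). Neither gene's libraries overlapped between genotypes, but the values are small, 24.0 normalized counts or fewer in every medium library. The calls were fragile: the Il1a call was lost without 6 of the 8 libraries in turn and the Il1b call without 7 of the 8, with log2 fold changes of -1.55 to -1.33 and -2.25 to -1.29. Both calls were also lost with limma-voom (adjusted p = 0.164 and 0.109) and with only the 4 medium libraries in the fit (0.137 and 0.175), and over all alternatives the adjusted p ranged from 0.00116 to 0.340 for Il1a and from 0.00205 to 0.361 for Il1b.

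The other members were not called with medium. Il18 came nearest, with a log2 fold change of -0.57 (SE 0.133, interval -0.86 to -0.27, adjusted p = 0.0610). Il1rn gave -0.55 (SE 0.246, adjusted p = 0.386), Il18bp -0.48 (SE 0.227, adjusted p = 0.418) and Il1rap -0.14 (SE 0.149, adjusted p = 0.779). The interval for Il1rap ran from -0.47 to 0.19. Of 17 alternatives, 3 called Il18 with medium, 2 called Il1rn, 2 called Il18bp and 0 called Il1rap. The libraries of Il18, Il1rn, Il18bp and Il1rap did not overlap between genotypes with medium. Such a separation of 2 against 2 libraries is weak, since an exact permutation test cannot go below p = 0.33. The share of all tested genes separated in this way was not counted.

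The third comparison asked the same after LPS + MSU. Of the 7 members 3, namely Il1a, Il1b and Il1rn, were called lower in Ncoa6-KO BMDMs and none higher, where 1.63% of tested genes were called lower and 1.96% higher. Leaving out Il1r2, the 6 log2 fold changes were again below 0, with a median of -0.59 beside 0.00 over all tested genes. Il1a was at 52.9% of the Ncoa6-sufficient level, a log2 fold change of -0.92 (SE 0.108, interval -1.16 to -0.68, adjusted p = 0.00315), and it stayed under the adjusted p threshold in every alternative run. Il1b was at 60.0%, a log2 fold change of -0.74 (SE 0.111, interval -0.98 to -0.49, adjusted p = 0.00744). Here the Il1b values were high and the libraries did not overlap, yet the call was lost without Ncoa6-sufficient LPS + MSU replicate 1 (-0.69, adjusted p = 0.0691) or Ncoa6-KO LPS + MSU replicate 2 (-0.75, adjusted p = 0.0876).

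Il1rn was at 39.5% of the Ncoa6-sufficient level after LPS + MSU, a log2 fold change of -1.34 (SE 0.243, interval -1.88 to -0.81, adjusted p = 0.0157), so the antagonist was lower along with the agonists. Its size leaned on the highest library: without Ncoa6-sufficient LPS + MSU replicate 1 it was -0.94 (adjusted p = 0.132). The call was also lost without Ncoa6-KO LPS + MSU replicate 2 (-1.16, adjusted p = 0.180) and with only the 4 stimulated libraries in the fit (-1.34, adjusted p = 0.0689). The IL-18 side was not called: Il18 gave -0.31 (SE 0.103, adjusted p = 0.137) with no overlap between genotypes, and Il18bp gave -0.45 (SE 0.190, adjusted p = 0.252) with overlapping libraries. Il1rap gave -0.30 (SE 0.145, interval -0.62 to 0.02, adjusted p = 0.319), also with overlap. Of 17 alternatives, 1 called Il18 with LPS + MSU, 2 called Il18bp and 0 called Il1rap. In every alternative run, other scalings and left-out libraries included, the fold changes of the 6 members other than Il1r2 were below 0 in both conditions.

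**Figure D3:**
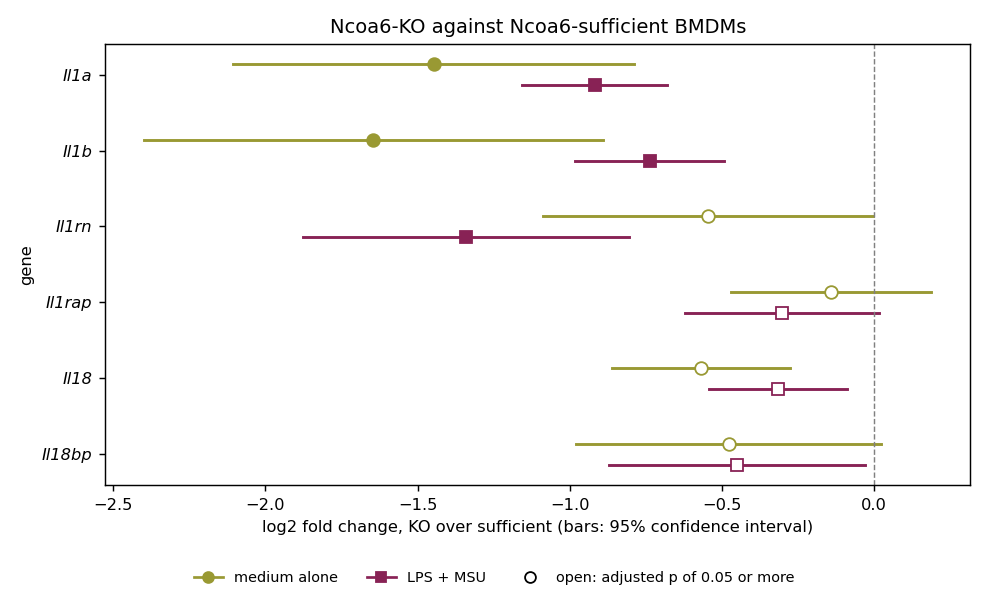
Log2 fold changes of Ncoa6-KO over Ncoa6-sufficient BMDMs for 6 members, with medium alone (olive circles) and with LPS + MSU (purple squares), and 95% confidence intervals as bars. Filled symbols mark an adjusted p under 0.05: Il1a at -1.45 and -0.92, Il1b at -1.65 and -0.74, and Il1rn at -1.34 with LPS + MSU only; no point lies above 0.

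Whether the knockout effect differed between medium and LPS + MSU was tested by the interaction, the second effect minus the first. No member was called, and 0% of tested genes were (1045 genes had an unadjusted p under 0.05, and DESeq2 called 45). Il1b gave 0.91 (SE 0.363, adjusted p = 0.799), Il1a 0.53 (SE 0.320, adjusted p = 0.900) and Il1rn -0.80 (SE 0.343, adjusted p = 0.811). Il18, Il18bp and Il1rap lay between -0.16 and 0.25. The Il1rn interaction was called in 2 of 17 alternatives, with nearly the same size: without the low-count filter it was -0.79 (adjusted p = 0.00121), and over all alternatives its adjusted p ranged from 9.77e-05 to 1.00. Whether the Il1rn difference depends on the stimulus thus changes with the settings of the test, and for the other members no alternative called the interaction.

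Ratios within a library do not depend on how libraries were scaled, and they set each antagonist against its agonist. They are ratios of counts per kb, with no test, since an exact permutation test of 2 against 2 cannot go below p = 0.33. In Ncoa6-sufficient BMDMs with medium Il1rn stood at 15.7 and 12.3 times Il1a and Il1b together. In Ncoa6-KO BMDMs with medium the ratio was 25.2 and 33.3. No library overlapped, and the mean log2 ratio was 1.06 higher in Ncoa6-KO BMDMs, 0.86 to 1.26 when any medium library was left out. The medium ratios rest on few agonist reads: the Ncoa6-KO libraries held 11.7 and 9.0 for Il1a and 10 and 4 for Il1b. They draw on the same low Il1a and Il1b counts as the fragile calls above. With LPS + MSU the ratio per kb turned below 1 in every library, at 0.481 and 0.305 in Ncoa6-sufficient and 0.317 and 0.225 in Ncoa6-KO BMDMs. Its place below 1 depends in part on the division by exon length. In Ncoa6-sufficient LPS + MSU replicate 1 Il1rn had 63117.8 normalized counts, more than Il1a (13725.2) and Il1b (31994.6) together. In the other stimulated libraries Il1rn had fewer than both together. The genotypes overlapped with LPS + MSU, with a log2 difference of -0.52, and LPS + MSU lowered the log2 ratio by -5.18 and -6.76.

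The ratio of Il18bp to Il18 moved little by comparison. It was 0.495 and 0.512 with medium and 0.473 and 0.318 with LPS + MSU in Ncoa6-sufficient BMDMs, and 0.569 and 0.493, then 0.407 and 0.308, in Ncoa6-KO BMDMs. Its place below 1 depends in part on the division by exon length, since Il18bp had more normalized counts than Il18 in every medium library. After stimulation the log2 ratio was lower by -0.38 in Ncoa6-sufficient and by -0.58 in Ncoa6-KO BMDMs than with medium, without overlap between conditions in either genotype. The genotypes overlapped under both conditions, with log2 differences of 0.07 and -0.13. Il1a to Il1b was 1.24 and 1.29 with medium and 0.414 and 0.444 with LPS + MSU in Ncoa6-sufficient BMDMs. In Ncoa6-KO BMDMs it was 1.16 and 2.17, then 0.343 and 0.413, so the balance turned to Il1b with stimulus in both genotypes. The genotypes overlapped with medium and were separated by only a small gap with LPS + MSU, at a log2 difference of -0.19.

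**Figure D4:**
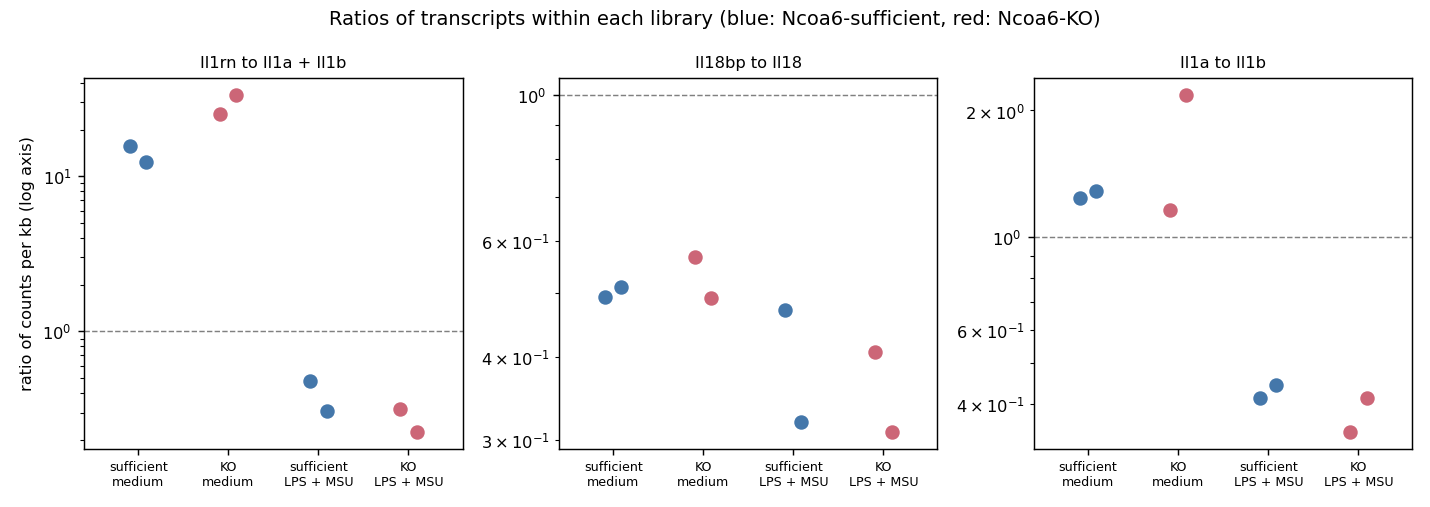
Ratios of counts per kb (log axes, a separate range in each panel) of Il1rn to Il1a + Il1b, Il18bp to Il18 and Il1a to Il1b in each library, blue for Ncoa6-sufficient and red for Ncoa6-KO BMDMs. The dashed line marks a ratio of 1 in counts per kb, and which points lie below it depends on the division by exon length. Il1rn to the agonists falls from 12.3 or more in medium to 0.481 or less with LPS + MSU.

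Other genes of the system were read as fixed lists. Of 6 other ligands 3 were tested (Il33, Il36a and Il36g) and none was called between genotypes. They had at most 26 reads in any library. Il36a and Il36g were called higher with LPS + MSU in both genotypes, where 24.7% and 25.2% of all tested genes were. Il33 was called higher in Ncoa6-sufficient BMDMs, with no call for the interaction (adjusted p = 0.930). With medium Il36a had 0 reads and Il33 at most 1 read in any library. Both thus passed the low-count filter only through stimulated libraries, which favours a higher call. Il36b, Il36rn and Il1f10 each had at most 1 read in all 8 libraries together.

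Of 8 other receptor genes 5 were tested. Il1r1, the signalling receptor of IL-1, had only 3 to 7 reads in each library and was not called. Il18rap, the signalling partner chain of the IL-18 receptor, was called lower after LPS + MSU when Ncoa6 was lacking. It was 1 of 5 tested genes, where 1.63% of all tested genes were called lower. Its normalized counts were 243.8 and 155.6 in Ncoa6-sufficient against 78.4 and 56.0 in Ncoa6-KO BMDMs, without overlap. The log2 fold change was -1.57 (SE 0.298, adjusted p = 0.0194), and with medium it was -0.72 (interval -1.45 to 0.02, adjusted p = 0.402). Il18r1, the chain that binds IL-18, had 1 read in all libraries together. With LPS + MSU 1 of the 5 was called higher and 2 lower in each genotype. Of all tested genes 24.7% and 25.2% were called higher and 30.5% and 27.9% lower, so these counts are near those shares. The gene called higher was Il18rap, by 2.13 and 1.29 on the log2 scale. Called lower with LPS + MSU were Il1rl1, the IL-33 receptor, by -2.36 and -2.28, and Sigirr, an inhibitory receptor of the family, by -2.07 and -1.91. Neither was called between genotypes, and Il1rapl1 and Il1rapl2 had no read.

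None of the 8 genes of maturation and release (Nlrp3, Pycard, Casp1, Casp4, Casp8, Gsdmd, Nek7 and Ninj1) was called between genotypes under either condition, with median log2 fold changes of -0.28 and -0.16. Over all tested genes 1.3% were called lower and 0.573% higher with medium, and 1.63% and 1.96% with LPS + MSU. At such shares the absence of calls among 8 genes says little about this list. Nlrp3, the inflammasome sensor, gave -0.38 with medium (adjusted p = 0.154) and 0.00 with LPS + MSU (adjusted p = 1). Pycard, the adaptor that links NLRP3 to caspase-1, came nearest with LPS + MSU at -0.64 (adjusted p = 0.0579). With LPS + MSU 7 of the 8 were called higher in each genotype, where 24.7% and 25.2% of all tested genes were. Among them were Nlrp3 by 4.09 and 4.48, Casp4 by 3.39 and 3.61 and Casp1 by 2.86 and 2.93. Pycard was called lower in Ncoa6-KO BMDMs (-0.48, adjusted p = 0.0242) and gave 0.04 in Ncoa6-sufficient BMDMs, and the interaction was not called (adjusted p = 0.808).

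Of 17 genes of receptor signalling, from Myd88 to Nfkbiz, none was called between genotypes, with medians of -0.08 and -0.09. Over all tested genes 1.3% and 1.63% were called lower and 0.573% and 1.96% higher, so the absence of calls again says little. Myd88, the adaptor of IL-1 and most Toll-like receptors, came nearest with medium at -0.55 (adjusted p = 0.0558). With LPS + MSU 10 of the 17 were called higher and 3 lower in each genotype, where 24.7% and 25.2% of all tested genes were called higher and 30.5% and 27.9% lower. Higher were the nuclear NF-κB cofactor Nfkbiz by 5.56 and 5.50, the inhibitor Nfkbia by 4.17 and 4.16, Peli1 by 3.96 and 3.86 and the kinase Irak2 by 3.54 and 3.52. Lower were Tab1 by -1.44 and -1.30, Irak4 by -0.92 and -0.82 and Irak1 by -0.54 and -0.39.

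The genes most like each member were found by the root mean square difference of log2 values, each gene centred on its own mean over the 8 libraries, among 11218 genes that averaged 50 or more normalized counts. For Il1b they were Ccl5 (0.450), Cxcl9 (0.488) and Il27 (0.494), all secreted immune mediators. Il1a had Cd40 (0.396), Gbp5 (0.424) and Cd69 (0.446), and Il1b was only the 22nd nearest to it, at 0.905. Nearest to Il1rn were Tagap (0.274), Slc28a2 (0.304) and Pnp2 (0.337), and to Il18 Slfn8 (0.086), Daxx (0.097) and Nod2 (0.103). Il18bp had Hap1 (0.116), Glipr2 (0.164) and Hopx (0.165), and Il1rap had Tmed5 (0.043), Tfg (0.046) and Selenot (0.070).

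The nearest tested protein-coding genes around the Il1a and Il1b pair did not respond to LPS + MSU as the pair did. Ckap2l, a mitotic spindle gene 2.398 kb from Il1a, was called slightly lower with LPS + MSU, with -0.35 for Ncoa6-sufficient and -0.47 for Ncoa6-KO BMDMs. Between genotypes it went the same way as the pair, at -0.46 (adjusted p = 0.0676) with medium and -0.58 (adjusted p = 0.0235) with LPS + MSU. F830045P16Rik, 87.22 kb beyond Il1b, gave -1.35 (adjusted p = 0.0188) and -0.69 (adjusted p = 0.163) with LPS + MSU, and -0.01 and 0.65 between genotypes, neither called.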

How the data were processed

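RNA-seq had been run on 8 BMDM libraries, 2 in each of 4 groups. Per the labels and the study's methods, the authors aligned reads to GRCm38 with STAR 2.7.3a and estimated expected counts per gene with RSEM 1.3.3 (annotation release 101). The deposited values were these expected counts, not normalized. Here whole numbers were taken by rounding, and a gene was left out when its count sum was under 10, as in the study's filter. Library totals were 25281955 to 33673552 and TMM factors 0.766 to 1.29. edgeR 4.0.16 (R 4.3.3, limma 3.58.1) fitted the 4 groups together with a quasi-likelihood test on 4 residual degrees of freedom, and p-values were adjusted over 17625 genes by the Benjamini-Hochberg method. The median biological coefficient of variation was 0.114. The standard error is the absolute log2 fold change over the square root of F, and 95% intervals use the moderated degrees of freedom. Exon lengths and positions were from GENCODE M21 (GRCm38), another release than the authors used, and 50295 of 50615 genes had a symbol. The code was tested on simulated data.

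The members and gene lists were chosen with earlier results of these data known. Named were the 7 members, genes of the fixed IL-1 and IL-18 lists that were called or pair with a member, the 3 genes with the most similar pattern to each member, the nearest neighbours of Il1a and Il1b, and Ncoa6. Alternatives were DESeq2 size factors, library totals, no filter, filterByExpr, DESeq2 1.42.0, limma-voom, a replicate block, only the compared libraries, a fold threshold and each library left out. Leaving libraries out of the ratios was added after the data were seen. The study used DESeq2 as its main test. Protein sequences were not used here.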

Additional observations from a re-analysis of the deposited data

How the results depend on the processing

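For 6 members and 5 comparisons, 522 alternative log2 fold changes were computed: 478 kept their direction and side of the threshold, 25 fell short of it, 12 newly passed it and 7 turned sign, all 7 in interactions that were never called. The responses to LPS + MSU were called in all alternatives for these 6 members. The causes of the changes were not tested.

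Members called between genotypes with medium numbered 2 in the main analysis, 1 with library totals, 5 without the low-count filter, 0 with limma-voom, 0 with only the 4 libraries compared and 0 to 1 with a library left out. With LPS + MSU they numbered 3, but 1 with a log2 fold threshold of 1 and 1 to 3 with a library left out. Genes called with medium numbered 331, but 1152 without the filter, 506 with DESeq2, 147 with the fold threshold and 22 to 372 with a library left out. With LPS + MSU they numbered 632, but 1611 without the filter, 139 with only the 4 libraries, 182 with the fold threshold and 58 to 761 with a library left out. Of the 632, 345 were higher and 287 lower, against 480 and 218 with library totals, 295 and 343 with DESeq2 size factors and 344 and 505 with DESeq2. Genes responding in Ncoa6-sufficient BMDMs numbered 9737, 5726 with the fold threshold and 8250 to 9792 with a library left out, and in Ncoa6-KO BMDMs 9359, 5339 and 7738 to 9262, while 6 members were called with any library left out. For the interaction, 269 genes and 1 member (Il1rn) were called without the filter, 45 genes with DESeq2, and 0 to 23 genes and 0 members with a library left out.

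The interaction of Il18bp was 0.03 and turned to -0.026 with DESeq2 size factors and -0.023 with DESeq2, and ranged from -0.28 to 0.27 with a library left out (-0.25 without Ncoa6-sufficient LPS + MSU replicate 2, -0.11 without Ncoa6-sufficient medium replicate 1, -0.28 without Ncoa6-KO LPS + MSU replicate 1, -0.15 without Ncoa6-KO medium replicate 2). That of Il1rap ranged from -0.39 to 0.0037, the last without Ncoa6-sufficient LPS + MSU replicate 1. Left-out libraries moved the log2 difference between genotypes of Il1rn to the agonists from 0.86 to 1.26 with medium and from -0.85 to -0.19 with LPS + MSU, of Il18bp to Il18 from -0.03 to 0.18 and from -0.42 to 0.15, and of Il1a to Il1b from -0.12 to 0.78 and from -0.32 to -0.06.

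Libraries share replicate numbers across groups, but the sources do not say that a number marks a mouse or batch. Deviations of same-numbered libraries correlated at 0.283 for Ncoa6-sufficient and 0.353 for Ncoa6-KO libraries over 11219 genes, with only 2 pairs each, so the block is given here only. With the replicate block 5 members and 1023 genes were called with medium, 5 members and 1532 genes with LPS + MSU, and 86 genes for the interaction. With a replicate block within each genotype the interaction called 444 genes and 1 member, Il1rn.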
